A study of Mus musculus with 12 samples.

Results

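The Myc, Mycl and Mxd network is described here in mouse bone marrow derived macrophages before and after lipopolysaccharide (LPS), the outer membrane molecule of Gram-negative bacteria that macrophages sense through Toll-like receptor signalling. Its 8 members are Myc, Mycl, Max, Mxd1, Mxd3, Mxd4, Mxi1 and Mnt. They were found by gene name on a 1-colour Agilent array (Mycl stands there under its older symbol), and where a gene had several probes, the probe was selected on the highest mean log2 signal over the 12 arrays. The family was proposed with earlier results of these arrays known, so the calls given for it describe its members and are no independent evidence about the family. All 8 genes had a probe, and 7 passed the filter on dim probes, of 20457 genes that passed in the whole series. Mxi1 was the member that did not pass. The filter kept a probe where the scanner software marked it as well above background throughout 1 or more groups of 3 arrays.

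All macrophages came from the marrow of female C57BL/6 mice of 6 to 8 weeks and were grown for 7 days in L929 conditioned medium, a source of the growth factor CSF1. No cell carried an engineered allele. The 4 groups had 3 arrays each. Untreated macrophages received no LPS. Acute macrophages received LPS once, for 4 h. Tolerant macrophages received LPS for 8 h, rested for 16 h and received LPS again for 4 h. Recovered macrophages received the same first exposure and the same final 4 h of LPS, with a rest of 88 h between them by the sample descriptions, while the protocol text gives 2 to 4 days. Tolerance is the state in which a second exposure to LPS elicits a reduced response at many genes. The 3 arrays of a group are described as independent experiments, and separate animals are not stated, so p-values measure the spread between these arrays.

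Myc and Mycl are transcription factors that bind DNA only as dimers with Max, at the E-box motif CACGTG, and raise the transcription of genes for growth, ribosome production and division. The Mxd proteins (Mxd1, Mxi1, Mxd3 and Mxd4) and Mnt dimerise with the same Max, bind the same motif and recruit Sin3 and histone deacetylases, which lowers transcription. In many lineages the balance moves from Myc to Mxd1 as cells leave the cell cycle and differentiate, and in cultured macrophages CSF1 maintains Myc while LPS stops CSF1-driven division. Mycl is known above all from dendritic cells.

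Network proteins bind the E-box, and some network genes carry one themselves, so the members' promoters were searched for it. A promoter here is the stretch from 250 bases before to 50 bases after an annotated transcript start in RefSeq, build GRCm38.p6. Of the 8 members, 7 matched the promoter table, all but Myc, with 9 promoters. CACGTG, which reads the same on both strands, stood in the promoters of 3 members, Max, Mnt and Mxd4, and in 7.15% of the 32851 promoters in the table. Its first base lay at position -3 relative to the start in Max, at -123 in Mnt and at -219 in Mxd4. These 3 are printed from 250 bases before the start through the first 10 bases after it, on the gene's own strand, with the E-box in capitals. The reason is that these genes moved in 3 different ways across the groups, with Mxd4 read on its brighter probe. They lie on GRCm38.p6 at chr12:76962239-76962498 (minus strand) for Max, chr11:74830674-74830933 (plus strand) for Mnt and chr5:34187701-34187960 (minus strand) for Mxd4.
Max promoter: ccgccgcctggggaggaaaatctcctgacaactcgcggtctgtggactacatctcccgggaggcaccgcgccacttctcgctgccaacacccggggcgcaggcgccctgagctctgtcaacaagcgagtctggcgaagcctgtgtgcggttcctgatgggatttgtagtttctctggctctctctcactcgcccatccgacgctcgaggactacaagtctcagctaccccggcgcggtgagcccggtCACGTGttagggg
Mnt promoter: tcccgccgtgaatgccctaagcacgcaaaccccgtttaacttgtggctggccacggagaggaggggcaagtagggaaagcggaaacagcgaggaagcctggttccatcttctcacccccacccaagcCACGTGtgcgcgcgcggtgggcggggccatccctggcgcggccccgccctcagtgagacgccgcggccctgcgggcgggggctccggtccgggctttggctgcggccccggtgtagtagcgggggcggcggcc
Mxd4 promoter: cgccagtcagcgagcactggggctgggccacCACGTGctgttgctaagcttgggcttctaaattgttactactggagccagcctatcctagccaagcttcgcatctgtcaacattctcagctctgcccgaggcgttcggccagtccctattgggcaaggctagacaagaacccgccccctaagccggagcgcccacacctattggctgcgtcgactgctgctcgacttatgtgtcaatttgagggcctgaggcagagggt
Max rose in acute macrophages, Mnt fell, and Mxd4 was highest in tolerant macrophages on the brighter of its probes, as given with their values further on. On its dimmer probe Mxd4 was highest in untreated macrophages and next in tolerant ones, as was Mnt. Motifs of factors downstream of LPS were searched on both strands in the same windows. No member's promoter held the AP-1 motif TGANTCA (in 7.81% of all promoters), the NF-kB consensus (4.51%) or the STAT motif TTCNNNGAA (8.3%). A match is only a run of letters in this window, and its absence says no more than that.

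Signals are log2 values from the scanner software, scaled so that every array had the same 75th percentile. They can be compared between arrays for 1 probe, and not between probes. The 12 arrays filled 3 slides. The first slide held replicate 1 of the untreated, acute and tolerant groups, the second held replicate 2 of all 4 groups with recovered replicate 1, and the third, scanned on a later day, held replicate 3 of all 4 groups. Between 47.8% and 55.0% of spots per array were well above background, and no spot was saturated. Differences were tested with limma in 1 model of the 4 groups, with Benjamini-Hochberg adjustment over all 20457 genes and a threshold of 0.05 on the adjusted p for a call. Of the calls, 48.9% were higher for acute against untreated and 52.3% for recovered against untreated. These shares were 41.5% and 42.2% under quantile normalisation, which moved the median log2 difference of all genes from 0.02 to -0.10 in the first comparison, and 37.3% and 38.9% with the authors' deposited values. For tolerant against untreated, recovered against tolerant and recovered against acute, the higher share of 56.6%, 53.4% and 71.5% was 40.8%, 42.3% and 49.8% with the authors' deposited values. Under quantile normalisation the same shares were 48.1%, 44.9% and 60.8%. Without the third slide the share for recovered against acute was 43.1%.

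After 4 h of LPS the network had more Mxd1, Mycl and Max signal and less Mnt, Mxd3 and Mxd4 signal than in untreated macrophages, while Myc itself was not called. Among the 7 tested members, 3 were called higher and 3 lower in acute against untreated macrophages, where 14.3% of all genes were called higher and 15.0% lower. Tolerant macrophages stood between the untreated and acute groups for Mxd1 and Mnt, near the untreated level for Max, and above both for Mxd4 on its brighter probe but not on its dimmer one. In tolerant against untreated macrophages 3 members were called higher and 2 lower (all genes, 11.3% and 8.63%), and in tolerant against acute macrophages 2 were called higher and 3 lower (all genes, 12% and 10.6%). Recovered against untreated macrophages again gave 3 higher and 3 lower members (all genes, 18.5% and 16.9%), and recovered against tolerant macrophages 3 higher and 2 lower (all genes, 11% and 9.62%). Recovered against acute macrophages gave 1 higher member, Mycl, and none lower by limma, with all genes at 1.46% and 0.582%. Before adjustment Myc also passed 0.05 there, in the lower direction, and with a replicate block it was called (limma adjusted p = 0.00956). Over the 4 groups together, the limma F-test called 6 of the 7 members, all but Myc (adjusted p = 0.0953), and 40.1% of all genes. The comparisons with untreated macrophages share the same 3 untreated arrays, so their agreement is partly built in. Mxd3 passed the filter through the untreated group alone, and Mycl through the acute and recovered groups alone. Their calls against dimmer groups, which these counts include, are not independent of the filter.

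**Figure D1:**
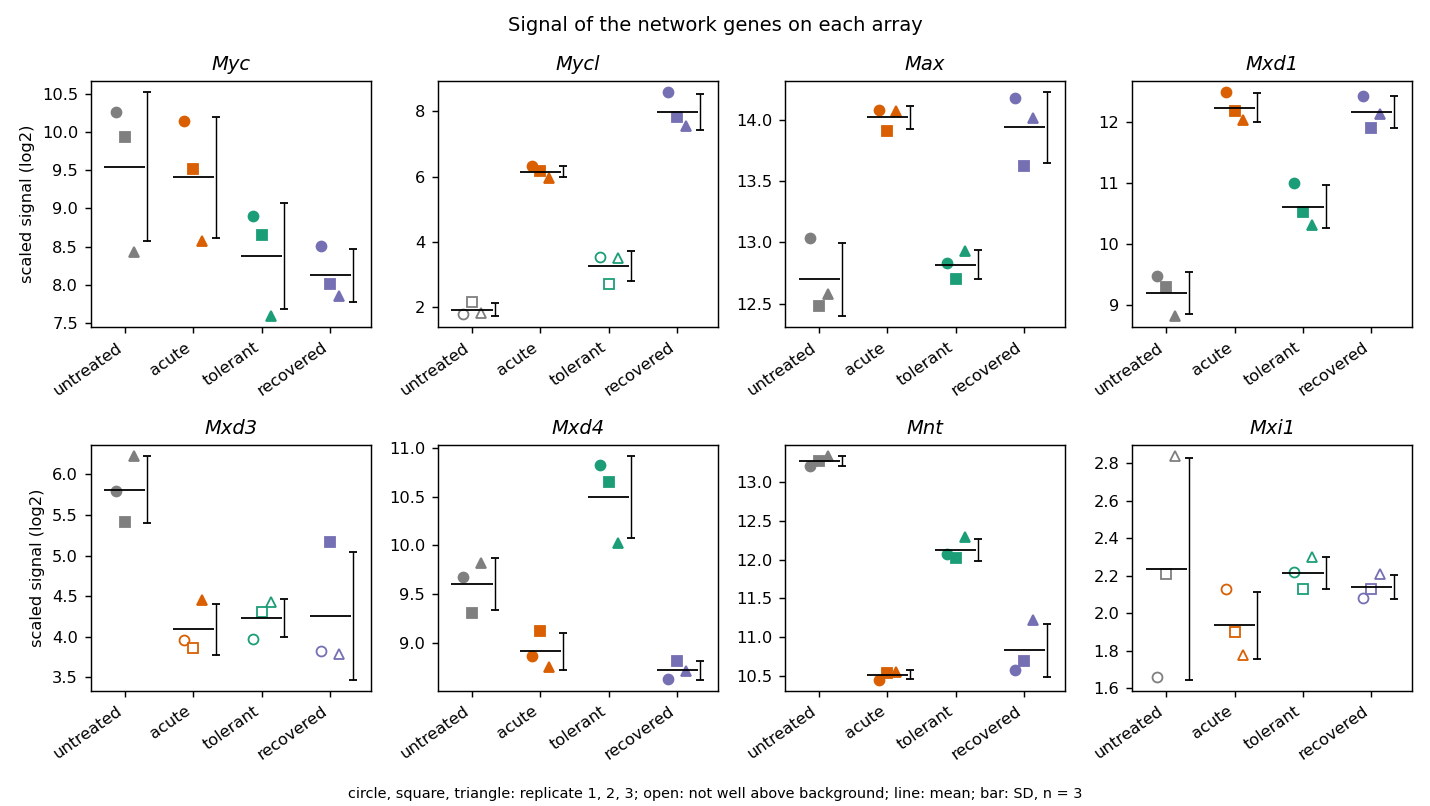
Scaled log2 signal of the chosen probe of each member (vertical axis, a separate scale per panel) on the 12 arrays by group (horizontal axis). Circles, squares and triangles are replicates 1, 2 and 3, open symbols are not well above background, and lines and bars are the mean and SD of 3 arrays. Max and Mxd1 are high in the acute and recovered groups, Mnt mirrors them, Mxd4 (brighter probe) peaks in the tolerant group, and the third replicate of Myc lies lowest in every group.

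Max, the dimer partner that the other members share, was higher in acute and recovered macrophages than in untreated and tolerant ones. Its scaled log2 signal was 13.04, 12.48 and 12.58 on the untreated arrays and 14.08, 13.91 and 14.07 on the acute arrays. Tolerant arrays gave 12.83, 12.70 and 12.93, and recovered arrays 14.18, 13.62 and 14.01. The acute and recovered arrays all lay above the untreated and tolerant arrays, and within each of these pairs of groups the values overlapped. Max rose by 1.32 ± 0.19 (log2, SE) from untreated to acute macrophages (2.50-fold, limma adjusted p = 0.000264) and was 1.24 higher in recovered than in untreated macrophages (adjusted p = 0.000362). Tolerant against untreated macrophages differed by 0.12, with a 95% interval from -0.29 to 0.54 (adjusted p = 0.729), and the sign turned under quantile normalisation (-0.08) and with the authors' deposited values (-0.09). Recovered macrophages were 1.12 above tolerant macrophages (adjusted p = 0.00238). On the single slides the difference between acute and untreated arrays was 1.04, 1.44 and 1.49. The order of the group means was acute (14.02), recovered (13.94), tolerant (12.82) and untreated (12.70), with neither the first pair of neighbours nor the last pair called.

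Myc, the growth-promoting factor of the network, was lower in tolerant and recovered macrophages on average, but its arrays also differed strongly by replicate number. The untreated arrays gave 10.26, 9.94 and 8.43, and the acute arrays 10.14, 9.51 and 8.57. Tolerant arrays gave 8.90, 8.65 and 7.59, and recovered arrays 8.51, 8.01 and 7.85. In every group the array of replicate 3, on the third slide, was the lowest, and the untreated and tolerant values overlapped. The untreated mean was 9.54 ± 0.98 (SD, n = 3) and the acute mean 9.40 ± 0.79, a difference of -0.14 with a 95% interval from -1.29 to 1.02 (limma adjusted p = 0.896). The tolerant mean was 8.38 ± 0.69 and the recovered mean 8.13 ± 0.35. Neither the difference of -1.16 between tolerant and untreated macrophages (adjusted p = 0.157) nor that of -1.42 between recovered and untreated macrophages (adjusted p = 0.0562) was called.

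The replicate numbers pair the arrays across groups, and with the replicate number as a block the Myc differences were called. In that fit the difference of -1.16 for tolerant against untreated macrophages had an adjusted p of 0.00329, and the difference of -1.42 for recovered against untreated macrophages one of 0.000579. Tolerant against acute macrophages (-1.02, adjusted p = 0.189) had 0.00563 in the blocked fit, and recovered against acute macrophages (-1.28, adjusted p = 0.293) had 0.00956. Acute against untreated and recovered against tolerant macrophages were called in neither fit. Within the slides, tolerant minus untreated Myc was -1.35, -1.29 and -0.84, and tolerant minus acute Myc was -1.24, -0.86 and -0.97. Recovered minus untreated Myc was -1.68 on the second slide and -0.58 on the third. Every within-slide difference of tolerant or recovered from untreated or acute arrays was thus below 0. Without untreated replicate 3, the tolerant against untreated difference was -1.72 (adjusted p = 0.0309) and the recovered against untreated difference -1.97 (adjusted p = 0.0087), both called without any block. The recovered against untreated difference was also called without acute replicate 1 (adjusted p = 0.0487), acute replicate 3 (0.0397) or tolerant replicate 3 (0.0461). It was called too with normexp background correction (0.043) and with an intensity trend in the prior (0.0454). Without the third slide and without any block, Myc was called in tolerant (-1.32, adjusted p = 0.0148) and recovered against untreated macrophages (-1.83, 0.0021). It was also called there in tolerant (-1.05, 0.0308) and recovered against acute macrophages (-1.56, 0.0366). The same comparisons were called with the authors' deposited values (0.0124, 0.00279, 0.025 and 0.0432) and with a slide block (0.00241, 0.00132, 0.00413 and 0.0196). The F-test over the groups gave an adjusted p of 0.000848 with the replicate block. The slide of replicate 3 was also scanned on its own day, so slide, scan day and culture cannot be told apart.

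**Figure D2:**
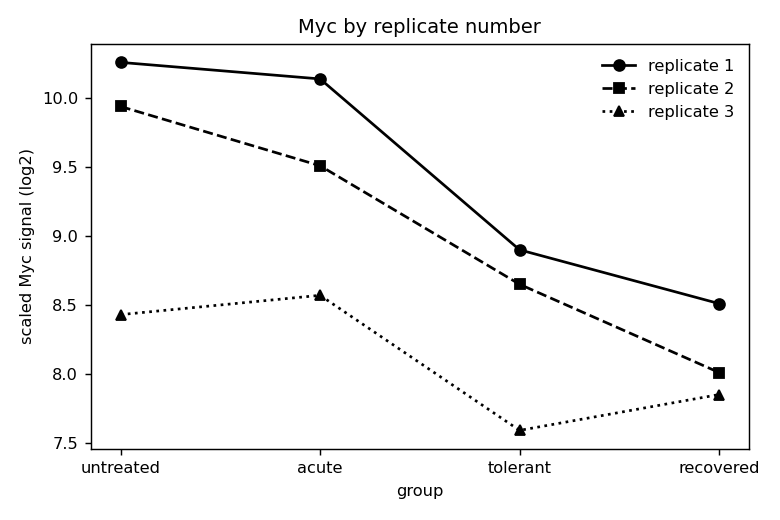
Scaled log2 signal of Myc (vertical axis) in the 4 groups (horizontal axis), with a line through the arrays of each replicate number. Each line is lower in the tolerant and recovered groups than in the untreated and acute groups, and the line of replicate 3 lies below the other two throughout.

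Mycl, the Myc relative known from dendritic cells, was well above background on the 6 acute and recovered arrays and on no other array. Untreated arrays gave 1.79, 2.14 and 1.82, and tolerant arrays 3.54, 2.72 and 3.50, none of them well above background. The acute arrays gave 6.32, 6.17 and 5.97 and the recovered arrays 8.59, 7.82 and 7.54, all well above background. No value of one group overlapped with another group. Mycl passed the filter on dim probes through the acute and recovered groups alone, so its calls against the other groups are not independent of the filter. For a gene at background in 1 group, the fold is a lower bound, taken against the lowest signal that was well above background on each array of the dim group. Mycl was at least 4.56-fold higher in acute than in untreated macrophages (limma adjusted p = 8.07e-07) and at least 16.2-fold higher in recovered than in untreated macrophages (adjusted p = 4.79e-08). These bounds hold on the scale of the scanner signal: the differences were 1.88 and 3.29 (log2) with the authors' deposited values (adjusted p = 0.00451 and 8.49e-05) and 1.22 and 2.40 with normexp background correction (0.000512 and 1.81e-06), all below the bounds and all called. On the same scale, tolerant macrophages lay below the acute level by at least 3.48-fold (adjusted p = 9.18e-05) and below the recovered level by at least 12.4-fold (adjusted p = 1.84e-05). Tolerant minus acute was -1.22 with the authors' deposited values (adjusted p = 0.0466) and -0.93 with normexp (0.00528). Recovered minus tolerant was 2.64 (0.00113) and 2.11 (4.64e-05) in these settings. All of these were smaller than the bounds and called. The test also called tolerant against untreated macrophages (adjusted p = 0.00643), but with both groups at background no fold is given. That call was lost with normexp background correction (adjusted p = 0.378) and with the authors' deposited values (adjusted p = 0.286), and it had an adjusted p of 0.0501 without the third slide.

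Recovered macrophages had 1.83 ± 0.29 (log2, SE) more Mycl signal than acute macrophages, a 3.56-fold difference (limma adjusted p = 0.0159). Mycl was the only member called between these groups in the main fit, which has no block. Myc was also called there with a replicate block (adjusted p = 0.00956), with a slide block (0.0196), without the third slide (0.0366) and with the authors' deposited values (0.0432). On the second slide the Mycl difference was 2.04 and on the third 1.57. The call was lost when any of 4 arrays was left out, acute replicate 1 (adjusted p = 0.0568), acute replicate 2 (0.076), recovered replicate 1 (0.0529) or recovered replicate 2 (0.0531), with a difference between 1.53 and 2.05 over all 12 such fits. With the authors' deposited values the difference was 1.41 (adjusted p = 0.0825). Markers of dendritic cells were read beside Mycl. Of 11 such markers, Xcr1 and Clec9a, which mark conventional dendritic cells, stayed at background on all 12 arrays. The log2 of the summed marker signal ranged from 16.46 to 17.03 on untreated arrays, 17.13 to 17.29 on acute, 16.61 to 16.77 on tolerant and 16.86 to 16.95 on recovered arrays. Of the 7 dendritic cell markers tested, 3 rose and 1 fell in acute, 3 rose and 1 fell in tolerant, and 2 rose and 1 fell in recovered macrophages, each against untreated ones. Zbtb46, a dendritic cell transcription factor, rose by 5.31 in acute (adjusted p = 3.06e-07), 4.15 in tolerant (5.13e-06) and 5.34 in recovered macrophages (2.75e-07) relative to untreated ones. Fscn1, an actin-bundling protein of mature dendritic cells, rose by 2.38 in acute (adjusted p = 0.000202), 4.94 in tolerant (1.92e-06) and 5.15 in recovered macrophages (4.75e-07). Its acute call was lost with the authors' deposited values (adjusted p = 0.163). Batf3, a transcription factor of conventional dendritic cells, fell in recovered macrophages (log2 difference -3.57, adjusted p = 2.14e-05). Its mean was below the untreated one in every group that received LPS (untreated 11.42, acute 9.75, tolerant 9.62, recovered 7.85). Between recovered and acute macrophages, where Mycl was called higher, Zbtb46 differed by 0.03 (adjusted p = 0.982), Fscn1 was higher by 2.78 (0.00542), and Batf3 (-1.90, 0.0333) and Irf8 (-1.43, 0.0101), another factor of that lineage, were lower. The Fscn1 call of that comparison was lost with the authors' deposited values, that of Irf8 without acute replicate 2, and that of Batf3 without untreated replicate 2, acute replicate 1 or 2 or any recovered array. Flt3, the receptor of dendritic cell precursors, stayed at background on every untreated, tolerant and recovered array, but not on every acute array. The part of dendritic cells in the Mycl signal was not tested, and in bulk RNA the number of cells of a type and the RNA per cell cannot be told apart.

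Mxd1, the Max-binding repressor that is typically induced as cells differentiate, rose most among the members with a signal above background in every group. Untreated arrays gave 9.47, 9.30 and 8.82, and acute arrays 12.48, 12.18 and 12.02. Tolerant arrays gave 10.99, 10.52 and 10.31, and recovered arrays 12.42, 11.90 and 12.13. The tolerant arrays lay between the other groups without overlap, and the acute and recovered arrays overlapped. Mxd1 rose by 3.03 ± 0.23 (log2, SE) in acute macrophages (8.14-fold, limma adjusted p = 2.30e-06) and by 2.95 in recovered macrophages (adjusted p = 2.74e-06). In tolerant macrophages it was 1.41 above untreated (adjusted p = 0.00136) and 1.61 below acute macrophages (log2 difference -1.61, adjusted p = 0.000757). Recovered against acute macrophages differed by -0.07, with a 95% interval from -0.59 to 0.44 (adjusted p = 0.923). Within the slides the acute minus untreated difference was 3.01, 2.88 and 3.19.

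A second, dimmer Mxd1 probe, which starts 1863 bases away, likewise had the untreated group lowest, the tolerant group next and the acute and recovered groups highest, with smaller differences from untreated macrophages. Its untreated arrays gave 9.25, 9.05 and 8.93, its acute arrays 11.70, 10.84 and 11.31, its tolerant arrays 10.13, 9.39 and 9.86, and its recovered arrays 11.46, 11.01 and 11.47. The acute and recovered arrays again lay above all others. On this probe Mxd1 rose by 2.21 in acute (limma adjusted p = 5.31e-05) and by 2.24 in recovered macrophages (adjusted p = 4.38e-05). Tolerant against untreated macrophages differed by 0.72 and was not called (adjusted p = 0.0721).

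Mxd4, another Max-binding repressor found mainly in resting and differentiated cells, had its highest signal in tolerant macrophages on its brighter probe and in untreated macrophages on its dimmer one. Untreated arrays of the brighter probe gave 9.68, 9.31 and 9.82, and tolerant arrays 10.82, 10.65 and 10.02. The acute arrays gave 8.87, 9.12 and 8.75, and the recovered arrays 8.63, 8.82 and 8.71. The tolerant arrays lay above all others, and the acute and recovered arrays, which overlapped, below all others. Tolerant macrophages exceeded acute macrophages by 1.59 ± 0.22 (log2, SE, 3.01-fold, limma adjusted p = 0.000532) and recovered macrophages by 3.44-fold (recovered minus tolerant -1.78, adjusted p = 0.000383). Recovered macrophages were also lower than untreated ones, by -0.89 (adjusted p = 0.00789).

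The calls of Mxd4 between single exposure or tolerance and the untreated state were less firm. Acute against untreated macrophages gave -0.69 ± 0.22 (limma adjusted p = 0.0319), with -0.82, -0.19 and -1.07 within the slides. That call was lost without the filter on dim probes (adjusted p = 0.0592) and without untreated replicate 1 (0.0871), untreated replicate 3 (0.102), acute replicate 1 (0.0795) or acute replicate 3 (0.0973). It was also lost without the third slide (adjusted p = 0.0863). Tolerant against untreated macrophages gave 0.90 (adjusted p = 0.0127), with 1.14, 1.34 and 0.21 within the slides. That call was lost without untreated replicate 2 (adjusted p = 0.0575), tolerant replicate 1 (0.0574) or tolerant replicate 2 (0.0546).

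Both Mxd4 probes target the same transcript with neighbouring sites that overlap by 13 bases, yet they differed in the tolerant group. The 30 bases around the overlap are printed for both, on the gene's strand, with the shared 13 bases in capitals, because the probes' disagreement rests on sites this close. In the files' build, mm9, the last 30 bases of the brighter probe lie at chr5:34519323-34519352 and the first 30 of the dimmer probe at chr5:34519306-34519335, both on the minus strand, so that the dimmer probe reaches farther towards the transcript's end.
Brighter Mxd4 probe, last 30 bases: atcattccagaagtattAAATATCATTTCT
Dimmer Mxd4 probe, first 30 bases: AAATATCATTTCTacaaatctcggcaggat
The brighter probe holds the letters ATTAAA once and the dimmer probe does not, and 3.95% of all probes hold them. ATTAAA is a known variant of the polyadenylation signal, whose main form AATAAA is in neither Mxd4 probe and in 10.1% of all probes. Whether the place of the transcript's end has a part in the probes' disagreement was not tested. The dimmer probe gave 7.36, 6.93 and 7.58 on untreated arrays, 6.64, 6.51 and 6.62 on tolerant arrays, 3.72, 3.01 and 5.03 on acute arrays and 4.35, 4.04 and 4.60 on recovered arrays. Its tolerant arrays thus lay below the untreated arrays, without overlap, where the brighter probe had them above. The tolerant minus untreated difference was -0.70 ± 0.40 on the dimmer probe (limma adjusted p = 0.275), against 0.90 on the brighter one, and 0.10 for the mean of both (adjusted p = 0.824). Both probes had the acute and recovered groups lowest. On the dimmer probe acute macrophages were 3.38 below untreated ones (log2 difference -3.38, adjusted p = 7.10e-05), with 1 of 3 acute arrays well above background, so that the size of the difference depends on readings at background. Untreated macrophages exceeded recovered ones, which were at background, by at least 7.25-fold (adjusted p = 0.000166).

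**Figure D3:**
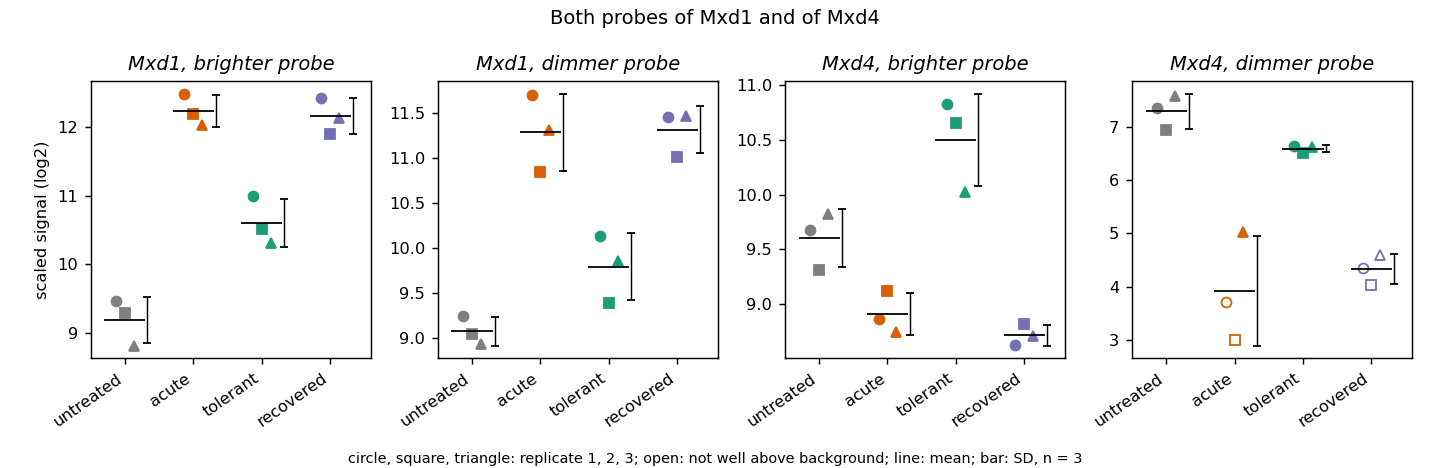
Scaled log2 signal (vertical axis, a separate scale per panel) of both probes of Mxd1 and of Mxd4 on the 12 arrays by group (horizontal axis). Circles, squares and triangles are replicates 1, 2 and 3, open symbols are not well above background, and lines and bars are the mean and SD of 3 arrays. Both Mxd1 probes have the acute and recovered groups highest, with little between them, and the untreated group lowest, whereas the tolerant group is highest on the brighter Mxd4 probe and second to the untreated group on the dimmer one.

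Mxd3, a family member that, unlike its relatives, is known from dividing cells, reached a clear signal on all 3 arrays in untreated macrophages alone. Those arrays gave 5.80, 5.41 and 6.23. Acute arrays gave 3.96, 3.86 and 4.45, tolerant arrays 3.97, 4.30 and 4.43, and recovered arrays 3.82, 5.17 and 3.79. Each untreated array lay above every other array. Well above background were 1 acute, 0 tolerant and 1 recovered array. Mxd3 thus passed the filter on dim probes through the untreated group alone, so its calls against that group are not independent of the filter. The difference between acute and untreated macrophages was -1.72 ± 0.35 (log2, SE, limma adjusted p = 0.0032), a size that rests on 2 acute arrays at background. It was -0.44 with normexp background correction (adjusted p = 0.0344) and -0.92 with the authors' deposited values (adjusted p = 0.00503). On the scale of the scanner signal, untreated macrophages exceeded tolerant ones by at least 2.66-fold (adjusted p = 0.00829). The tolerant minus untreated difference was smaller than this bound with normexp (-0.52, adjusted p = 0.022) and with the authors' deposited values (-0.84, 0.0119), and called in both. Recovered against untreated macrophages gave -1.55 (adjusted p = 0.00522), a call that was lost with normexp background correction (-0.27, adjusted p = 0.145) and without the third slide (-1.11, adjusted p = 0.0708). Within the slides that difference was -0.92 and -2.44. The 3 groups that received LPS were near background and are not compared with each other by fold.

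Mxi1, the Mxd-family repressor also called Mxd2, stayed at background on all 12 arrays. Its scaled log2 signal ran from 1.66 to 2.84. The probe represents 1 transcript variant of the gene, and other variants were not measured here. Without the filter on dim probes no comparison of Mxi1 was called by limma (adjusted p from 0.474 to 0.976).

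Mnt, the Max-binding repressor that is present in most cells whether they divide or not, fell in all 3 groups that received LPS. Untreated arrays gave 13.21, 13.28 and 13.34, a spread of 0.06 (SD, n = 3). Acute arrays gave 10.45, 10.54 and 10.55, tolerant arrays 12.07, 12.02 and 12.29, and recovered arrays 10.57, 10.69 and 11.22. No 2 groups overlapped. Mnt fell by 2.76 on the log2 scale from untreated to acute macrophages (SE 0.17, 6.78-fold, limma adjusted p = 4.33e-07) and by 2.45 from untreated to recovered macrophages (adjusted p = 1.05e-06). In tolerant macrophages it was 1.15 below the untreated level (log2 difference -1.15, adjusted p = 0.000738) and 1.62 above the acute level (adjusted p = 0.000128). The decrease from untreated to acute arrays was almost the same on each slide, at -2.76, -2.73 and -2.79. Recovered arrays all lay above the acute arrays, but the difference of 0.31 was not called (95% interval from -0.07 to 0.69, adjusted p = 0.465), and it was 0.09 on the second slide and 0.67 on the third. The order of the group means was untreated (13.27), tolerant (12.13), recovered (10.83) and acute (10.51).

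**Figure D4:**
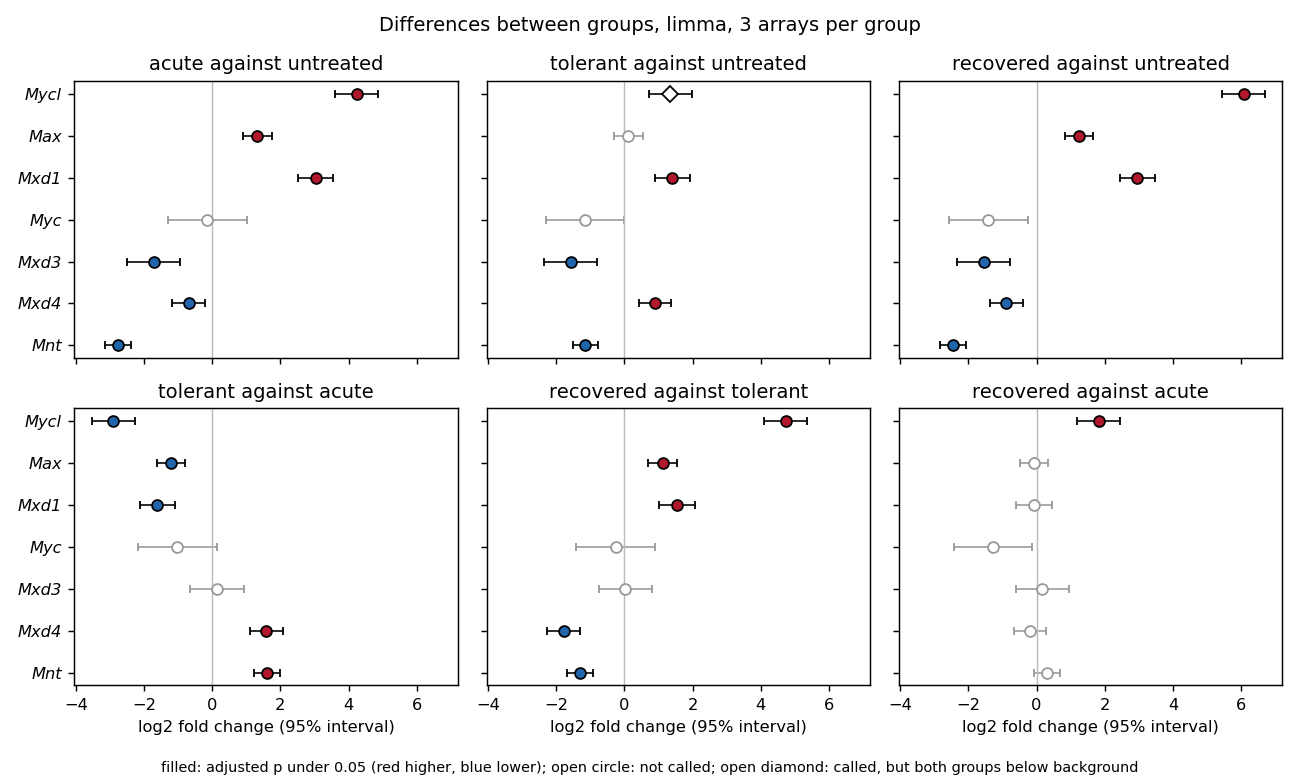
Fitted log2 difference (horizontal axis) of the 7 tested members (rows) in the 6 comparisons, as point and 95% interval from limma over 12 arrays. Filled symbols are called at an adjusted p under 0.05 (red higher, blue lower), open circles are not called, and the open diamond is Mycl in tolerant against untreated macrophages, where both groups were at background. The fitted Mycl values depend on background readings, so the text gives bounds instead, and recovered against acute macrophages shows a call for Mycl alone.

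Because Mxd1 and Myc compete for Max, the change of each was also set against the other on the same array, as the log2 change from the untreated mean. Mxd1 gained on Myc by 3.16 ± 0.57 (SD, n = 3) on acute arrays, with single arrays at 2.68, 3.01 and 3.79. The gain was 2.57 ± 0.44 on tolerant arrays (2.44, 2.21 and 3.06) and 4.37 ± 0.23 on recovered arrays (4.25, 4.23 and 4.63). The single untreated arrays lay at -0.44, -0.30 and 0.74, below every array of the other groups. Recovered arrays lay above all acute and tolerant arrays, and the acute and tolerant arrays overlapped. Replicate 3, where Myc was lowest, had the largest gain in every group. Each array was set against the mean of all untreated arrays, not against the untreated array of its own replicate number. The SDs and the overlap therefore include the difference between replicates. Mxd1 was read here from its brighter probe, which was 3.03, 1.41 and 2.95 above untreated in acute, tolerant and recovered macrophages. These differences were smaller on the dimmer probe (2.21, 0.72 and 2.24), so the size of the gains depends on the probe. Against Mxd4 on its brighter probe, Mxd1 gained 3.72 on acute, 3.84 on recovered and 0.51 on tolerant arrays, and the last value rests on that probe, since tolerant Mxd4 was 0.90 above untreated on it and at -0.70 on the dimmer one. Mnt lost 2.62 ± 0.84 relative to Myc on acute arrays (mean change -2.62) and stood at 0.01 ± 0.83 on tolerant and -1.03 ± 0.66 on recovered arrays. These are relative changes of probes, not ratios of protein or of RNA molecules.

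Genes whose signal followed that of a member most closely over the 12 arrays were sought among 12968 genes, as a description of likeness with group differences included. For Mxd1 these were Ppp1r15b (Pearson r = 0.996), Wdr43 (0.996) and Tmem67 (0.995), and for Mnt they were Hgh1 (0.990), B3gnt8 (0.989) and Xpc (0.987). Max was followed by Usp31 (0.985), Rbl1 (0.974) and Ppp6r1 (0.973), and Mycl by Inhbb (0.980), Map7d3 (0.978) and Slc12a4 (0.971). Myc was nearest to Bmp1 (0.983), Tmtc4 (0.974) and Aldh18a1 (0.971). Mxd4 was nearest to Mm2pr (0.973), Wbp1 (0.968) and Abcc3 (0.965), and Mxd3 to Rfng (0.942), Kctd2 (0.931) and Cdca7l (0.928). The 12 points are 4 groups of 3 arrays that also share slides. A high r can thus come from the same order of the groups, from shared differences between replicates, or from both, and these were not separated. Myc, which the F-test did not call, was lowest on replicate 3 in every group.

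Other proteins of the network and its cofactors were read from lists, beside the shares of all genes called higher and lower against untreated macrophages, which were 14.3% and 15.0% for acute, 11.3% and 8.63% for tolerant, and 18.5% and 16.9% for recovered macrophages. Of 6 further relatives of the Max network, 4 were tested, and each comparison with untreated macrophages called 1 of them higher and none lower, which among 4 genes is little to set against the 14.3%, 11.3% and 18.5% of all genes. Mlxip, a partner of Mlx that responds to glucose, rose by 1.03 in acute macrophages (limma adjusted p = 0.00237) and fell to a mean of 9.24 in tolerant macrophages from 10.24 in acute ones (adjusted p = 0.00465). Mlxipl, its relative, rose by 1.93 in tolerant (adjusted p = 0.00704) and by 2.75 in recovered macrophages (adjusted p = 0.000369). Of 12 Sin3 and associated corepressor genes, 2 were called higher and 2 lower in acute macrophages, close to the shares of all genes (14.3% and 15.0%). Sap30, a subunit of the Sin3 complex that Mxd proteins recruit, rose by 3.36 in acute (adjusted p = 8.21e-07), 1.73 in tolerant (0.000305) and 3.24 in recovered macrophages (1.04e-06). Hdac1, the deacetylase of that complex, rose by 0.84 in acute macrophages (adjusted p = 0.00929) and by 0.89 in recovered ones (0.00585). The list's median difference was -0.03 in acute macrophages, beside 0.02 for all genes.

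Among 19 tested genes for Myc coactivators and Myc turnover, 2 were higher and 2 lower in acute, 0 higher and 2 lower in tolerant, and 1 higher and 4 lower in recovered macrophages, all against untreated. Over all genes 14.3%, 11.3% and 18.5% were higher and 15.0%, 8.63% and 16.9% lower, so these counts are near or under the shares at large. Skp2, which ubiquitinates Myc and the cell cycle inhibitor p27, fell by 1.83 in acute (adjusted p = 2.69e-05), 1.01 in tolerant (0.00342) and 1.96 in recovered macrophages (1.50e-05), as log2 differences of -1.83, -1.01 and -1.96. Ep400, a chromatin remodeller that acts with Myc, rose by 1.65 in acute macrophages (adjusted p = 0.000352). Fbxw7, the ligase that marks Myc for degradation, was 1.18 lower in tolerant than in acute macrophages (log2 difference -1.18, adjusted p = 0.000926). The list's median differences against untreated were -0.10, 0.02 and -0.31 in acute, tolerant and recovered macrophages, beside 0.02, -0.02 and 0.06 for all genes.

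Genes that textbooks list as Myc targets did not form 1 pattern. Of 30 genes of ribosome production, 6 rose and 2 fell in acute macrophages, 2 rose and 0 fell in tolerant ones, and 6 rose and 4 fell in recovered ones, with medians of 0.18, 0.04 and -0.12. The shares of all genes that rose (14.3%, 11.3% and 18.5%) and fell (15.0%, 8.63% and 16.9%) were of similar size or larger, except for the 6 that rose in acute macrophages. Wdr43, a nucleolar protein of ribosome assembly, rose by 2.07 in acute (adjusted p = 5.30e-06) and in recovered macrophages (5.12e-06). Nucleotide, polyamine and one-carbon genes were called lower more often than genes at large in tolerant and recovered macrophages, and near the share at large in acute ones (all genes lower, 15.0% in acute, 8.63% in tolerant and 16.9% in recovered macrophages): of 23, 4 fell and 1 rose in acute, 7 fell and 1 rose in tolerant, and 11 fell and 2 rose in recovered macrophages, with medians of -0.28, -0.48 and -0.58. Mthfd2 and Shmt2, mitochondrial enzymes of one-carbon metabolism, stood 2.13 and 1.68 lower in tolerant than in untreated macrophages (log2 differences -2.13 and -1.68, adjusted p = 0.00486 and 0.00873). Srm, the spermidine synthase, was lower in recovered macrophages (-1.41, adjusted p = 0.000376), whereas Odc1, the first enzyme of polyamine synthesis, was higher there (1.86, adjusted p = 7.63e-05). Odc1 was also 1.37 above the acute level in recovered macrophages (adjusted p = 0.0216), a call that was lost without acute replicate 1 or 2 or recovered replicate 1 or 2 (adjusted p up to 0.0925). Of 15 translation genes, 1 rose and 0 fell in acute macrophages, 0 rose and 1 fell in tolerant ones, and 1 rose and 2 fell in recovered ones, each at or under the shares of all genes (higher 14.3%, 11.3% and 18.5%, lower 15.0%, 8.63% and 16.9%). Mars1, the methionine tRNA synthetase, was 1.53 lower in tolerant than in untreated macrophages (log2 difference -1.53, adjusted p = 0.00241).

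Cell cycle genes listed as activated by Myc were lower in 6 of 12 cases and higher in 2 in acute macrophages, lower in 4 and higher in 1 in tolerant, and lower in 6 and higher in 2 in recovered macrophages, with medians of -0.64, -0.23 and -0.59. Of all genes 15.0%, 8.63% and 16.9% were lower, fewer than in this list, and 14.3%, 11.3% and 18.5% higher, near the list. E2f2, a transcription factor of the G1 to S transition, had log2 differences of -3.39 in acute (adjusted p = 1.86e-06), -2.73 in tolerant (2.43e-05) and -3.92 in recovered macrophages (5.78e-07). The members that rose were cyclins. Ccne1, which drives entry into S phase, rose by 2.10 in acute (adjusted p = 1.64e-05) and 2.33 in recovered macrophages (6.95e-06). Ccnd2 rose by 4.21 in acute macrophages (adjusted p = 1.14e-06) and by 3.51 in recovered ones (4.82e-06). Of 9 growth arrest genes listed as repressed by Myc, 2 rose and 1 fell in acute, 2 rose and 3 fell in tolerant, and 2 rose and 5 fell in recovered macrophages, with medians of -0.34, -0.42 and -1.92 (the last -0.91 with genes at background in 1 group set at their bounds). Of all genes 14.3%, 11.3% and 18.5% rose and 15.0%, 8.63% and 16.9% fell. Cdkn1a, the inhibitor p21, rose by 2.70 in acute macrophages (adjusted p = 1.93e-06). Cdkn1c, the inhibitor p57, was lower in tolerant (-3.29, adjusted p = 3.36e-05) and recovered macrophages (-2.66, adjusted p = 6.71e-05) and also 2.93 below the acute level in the latter (log2 difference -2.93, adjusted p = 0.00388).

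Signals described as acting on Myc transcription were called higher more often than genes at large: of 16 genes, 8 rose and 1 fell in acute, 10 rose and 1 fell in tolerant, and 11 rose and 1 fell in recovered macrophages, where 14.3%, 11.3% and 18.5% of all genes rose, with medians of 0.88, 0.85 and 1.12, or 0.60 and 0.89 for acute and recovered macrophages with genes at background in 1 group set at their bounds. Csf1, the growth factor that the culture medium also supplies, rose by 5.06 in acute (adjusted p = 4.67e-08) and 4.63 in recovered macrophages (8.36e-08). Rel, an NF-kB subunit, rose by 3.45 and 3.31 in the same groups (adjusted p = 3.03e-05 and 3.88e-05). Csf2, the growth factor GM-CSF, was highest in tolerant macrophages, at least 10.7-fold above untreated ones, which were at background (adjusted p = 2.52e-06), and 2.78 above acute ones (adjusted p = 0.000535, with 1 of 3 acute arrays well above background). Id1, an inhibitor of basic helix-loop-helix factors, was likewise higher in tolerant than in acute macrophages, by 3.39 (adjusted p = 0.000102). Csf2, Id1 and Mxd4 on its brighter probe had their highest group mean in tolerant macrophages. The lists were chosen with earlier results of these arrays known, and their counts describe them without a test.

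**Figure D5:**
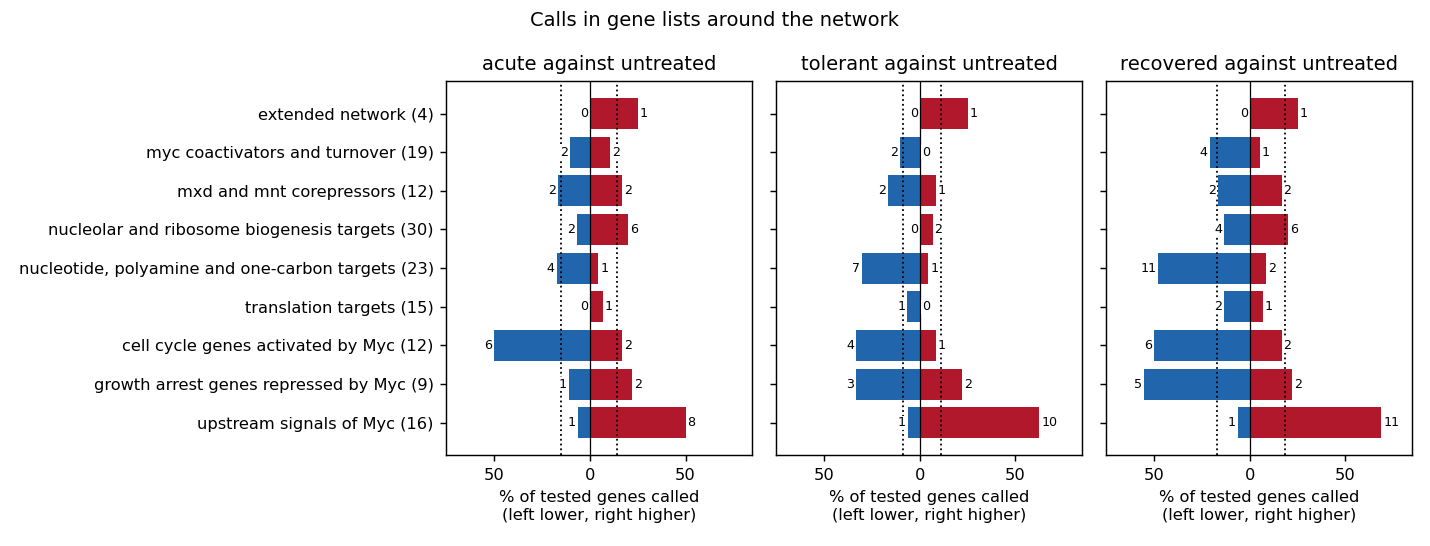
Share of the tested genes of each list called higher (right, red) or lower (left, blue) in acute, tolerant and recovered against untreated macrophages, by limma at an adjusted p under 0.05. Numbers in brackets are genes tested, numbers at the bars are genes called, and dotted lines mark the shares of all 20457 genes. The upstream signals reach 8, 10 and 11 of 16 higher, and the nucleotide, polyamine and one-carbon genes 4, 7 and 11 of 23 lower.

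Markers of the labelled cell type were present: all 9 macrophage genes on the array were well above background in every group, and the log2 of their summed signal ran from 19.16 to 19.25 on untreated and from 19.61 to 19.83 on recovered arrays. Markers of other cell types moved as well. The summed stromal markers rose from between 7.19 and 7.75 on untreated arrays to between 9.08 and 9.75 on recovered arrays, while Col1a1 stayed at background throughout. The mast cell list went from between 6.55 and 7.25 on untreated to between 11.30 and 11.49 on recovered arrays, and was 10.97 to 11.46 on acute and 8.53 to 8.93 on tolerant arrays. In this list Hdc, the histamine-forming enzyme, rose by at least 171-fold in recovered macrophages (adjusted p = 1.15e-09), whereas Kit, the stem cell factor receptor, went the other way, with untreated macrophages at least 4.04-fold above recovered (0.00106) and 4.35-fold above tolerant ones (0.000202). Cpa3, Mcpt4, Fcer1a and Gata2 were not well above background in any group. The summed platelet and erythroid markers, led by Pf4, were 12.59 to 13.71 on untreated and 15.11 to 15.65 on recovered arrays, with Alas2 not well above background. Neutrophil markers ran from 12.09 to 12.69 on untreated and 12.70 to 12.84 on recovered arrays, and S100a9, Ngp and Ltf were not well above background in any group. Lymphocyte markers ran from 12.28 to 12.73 over the 4 groups, with Cd3g and Ms4a1 not well above background in any of them. Of 3 lymphocyte markers tested, 0 were called higher and 1 lower in recovered against untreated macrophages (all genes, 18.5% and 16.9%). This was Cd79b, at -3.86 (limma adjusted p = 0.000715). The part of these markers' cells in the network's values was not tested.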

How the data were processed

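RNA of 12 macrophage cultures was labelled with Cy3 from 200 ng of total RNA and hybridised to 1-colour Agilent arrays of 62976 spots, per the labels. The deposited scanner files hold intensity values per spot from Agilent Feature Extraction 10.7.3.1, per the file headers (gProcessedSignal, already background-corrected by that software). The deposited value table holds the authors' log2 values of the same arrays. Each of its 12 columns matched its own array best (Pearson r of at least 0.973) and had a median of 5.34, and its normalisation is not given in the sources used here. The submitters' processing notes name limma without a version. Probe coordinates are on mm9, per the file headers.

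Outlier-flagged and control spots were left out (118 probes had none left), spots of a probe were averaged, and log2 intensity was scaled to each array's 75th percentile (8.04 to 9.38 before scaling). Probes marked well above background throughout 1 or more groups were kept, 28044 in all, and the probe with the highest mean log2 intensity stood for its gene. Genes were named through RefSeq tables or, unmatched, by the name in the file. The 4 groups were fitted in 1 model with limma 3.58.1 (lmFit and eBayes) in R 4.3.3, two-sided, with Benjamini-Hochberg adjustment over 20457 genes. The script was tested on simulated data. Arrays give no counts, so their number limits the precision.

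The replicate numbers in the labels pair the arrays. Over 18 pairs of the same number the deviations from the group means correlated at 0.275 to 0.773 (median 0.449). Over 36 pairs of different numbers they correlated at -0.653 to 0.337 (median -0.368), so the ranges overlapped. Deviations within a group cancel, so part of this contrast is built in. The main fit has no block, because the labels name none, and the blocked value is given where it changes a call.

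All 8 members are named. From each list and comparison at most 3 called genes were named, those with the largest log2 difference, or where none was called the gene with the smallest p, and for likeness the 3 genes with the highest Pearson r over 12 arrays. The members and lists were chosen with earlier results of these data known. Promoters are those of RefSeq on GRCm38.p6, searched in Python 3.11.15 with pandas 2.3.3. Alternatives were quantile normalisation, normexp background correction (offset 50), the authors' values, no filter on dim probes, a replicate block, a slide block, leaving out the third slide, an intensity trend in the prior, the mean of a gene's probes and leaving out each array. The dimmer probes of Mxd1 and Mxd4 were added after seeing the data.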

Additional observations from a re-analysis of the deposited data

How the results depend on the processing

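Of 42 differences (7 tested members in 6 comparisons), 40 kept direction and side of the threshold under quantile normalisation, 38 under normexp, 33 with the authors' values, 41 without the filter, 38 with the replicate block and 35 with the slide block. The replicate block, which uses the pairing, changed the calls of Myc in 4 comparisons and no other call of a member or named list gene. It raised the genes called to 7673 (tolerant against untreated), 9104 (tolerant against acute), 9229 (recovered against tolerant) and 2197 (recovered against acute, with 2 members called), and the F-test to 13673. With the slide block, 9299 (acute against untreated), 8067 (tolerant against untreated), 9607 (tolerant against acute), 8232 (recovered against tolerant) and 1600 (recovered against acute, 2 members) were called, and 13498 by the F-test. With the authors' values the counts were 9309, 7082 and 11138 for acute, tolerant and recovered against untreated, 7674 for tolerant against acute, 7408 for recovered against tolerant, 1203 for recovered against acute and 12905 by the F-test. The counts without these changes were 5995, 4071, 7243, 4639, 4222, 418 and 8207. No filter on dim probes left 99 genes called for recovered against acute, and leaving out the third slide gave 2 members there. Leaving out 1 array gave 25 to 446 genes and 0 to 1 members called for recovered against acute, and 2579 to 4509 genes for recovered against tolerant. Except that fewer arrays were fitted in the last cases, the cause of these shifts was not tested.

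Values that changed sign were small, apart from Mxd4. In tolerant against untreated macrophages Max was -0.08 under quantile normalisation and -0.09 with the authors' values, and Mxd4 was -0.70 on the dimmer probe, a setting added after the data were seen. In recovered against tolerant macrophages Mxd3 was -0.19 (quantile), -0.15 (authors' values) and -0.02 (slide block), and Ndrg2, a differentiation gene near background, was 0.03 with normexp. Tolerant against acute Mxd3 was -0.08 with normexp. In recovered against acute macrophages Mxd3 was -0.06 (authors' values), Max 0.01 and Mxd1 0.05 (slide block), Mxd1 0.03 on the dimmer probe, and Mxd4 0.11 (mean of probes) and 0.41 (dimmer probe). Leaving out 1 array moved Myc between -0.69 and 0.28 (acute against untreated) and between -0.65 and 0 (recovered against tolerant), and Mxd3 between -0.42 and 0.26 (recovered against tolerant). For recovered against acute it moved Mxd3 between -0.28 and 0.41, Max between -0.20 and 0.07 and Mxd1 between -0.21 and 0.05. Of 1701 values of named list genes under the other settings, 1628 kept their call, 72 lost it and 1 changed sign, and of 2268 without 1 array, 2106 kept it and 162 lost it. Signal over background limits Mycl, Mxd3 and the dimmer Mxd4 probe to bounds in some groups, and these bounds hold on the scale of the scanner signal.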
